A study of Homo sapiens with 19 samples.

Results

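The genes described here are 10 that modify, fold or cross-link collagen: P4HA1, P4HA2, P4HB, PLOD1, PLOD2, PLOD3, LOX, LOXL1, LOXL2 and SERPINH1. They were chosen by name, and every probe set whose platform annotation names only one of them was used. All 10 genes had such a probe set, 21 in all, out of 19775 genes and 54675 probe sets on the array. After a filter on low signals, 9 of the 10 genes were tested, with 18 of the 21 probe sets. LOXL1 did not pass it.

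The samples are SKBR3, an established human breast cancer cell line in which ERBB2 is amplified, and each was hybridised to 1 of 19 Affymetrix arrays. There were 3 samples of untreated cells, for which the labels name no sort. Cells given 60 nM epirubicin, an anthracycline that blocks topoisomerase II, over 3 days were flow-sorted on surface CD44, a hyaluronan receptor, into CD44-/lo and CD44hi cells, with 4 samples of each. Cells kept in 1% oxygen for 7 days (hypoxia) were sorted in the same way, again with 4 samples of each. All groups are the same line in the same medium with serum, and the treated groups differ from the untreated one by the sort as well as the treatment. The labels speak of biological replicates without saying that the samples came from separate cultures, and a p-value here measures only the spread between these samples, which may be technical.

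Collagen chains are modified in the endoplasmic reticulum before they are secreted. Prolyl 4-hydroxylases, made of a catalytic alpha subunit and the beta subunit P4HB, hydroxylate prolines, which lets the triple helix stay folded at body temperature. Lysyl hydroxylases (PLOD genes) hydroxylate lysines that later carry sugars or take part in cross-links, and these hydroxylases need oxygen, iron and 2-oxoglutarate. Outside the cell, lysyl oxidases (LOX genes) oxidise lysines of collagen and elastin so that the fibres become cross-linked. Several of these genes are known targets of the hypoxia-inducible transcription factors, which bind a short element called the hypoxia response element.

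The arrays carried the expression of the labelled line. Of 8 genes fixed as markers of SKBR3 cells, 7 had a mean signal above the filter's floor of 16.9 in every group, and ERBB2 ranged from 2363.7 to 4195.0. The exception, CDH1, which this line is known to lack, ranged from 2.3 to 35.4 and reached the floor on average only in CD44-/lo cells after hypoxia. CD44 signal was 487 to 1658.3 on the CD44hi arrays after hypoxia and 20.5 to 456 on the CD44-/lo arrays, and it was 216 to 1268.3 and 59.7 to 132 in the same fractions after epirubicin. It was 52.4 to 78.8 in untreated cells. Of 10 fibroblast markers, only COL1A1 reached the floor on average in any group, at 14.6 to 47.0 over all arrays. The summed signal of that list was 41.2 to 63.9 in untreated cells and at most 116 elsewhere. A list of 8 endothelial and immune markers, 7 of them with a probe set, summed to 61.1 to 61.7 in untreated cells and to 102 to 388 in the treated groups, most of it from CDH5 (31.1 to 320). Its part in the results below was not tested. On both hypoxia arrays numbered 2, 7 of the 10 genes (P4HA1, P4HA2, P4HB, PLOD1, PLOD2, LOX and LOXL2) had the lowest signal of their group, and these arrays lay nearest to the untreated ones on the first principal component (8.61 and 22.93, against 27.31 to 63.86 for the other hypoxia arrays and -44.05 to -42.8 for untreated cells). The ratio of 3' to 5' ACTB control signal was highest on the epirubicin arrays numbered 4, at 1.706 and 1.85. Among epirubicin arrays, the one numbered 2 was lowest for 4 of the 10 genes in CD44-/lo and 5 in CD44hi cells. The one numbered 4 was lowest for 4 and 2. The mean log2 signal of the hybridisation controls was 9.303 to 9.528 on the untreated arrays and 9.382 to 9.513 on the treated arrays numbered 2. On the other treated arrays it was 9.755 to 10.795. This level ran partly with treatment, and the 2 cannot be fully told apart.

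The signals are linear MAS5 values, and the tests used log2(signal + 4.2) in limma with all 19 arrays in the fit. A log2 change is the difference of group means on that scale, ± its SE, and a fold change is that difference unlogged, so it understates the change of genes with low signal. Mean signals are given ± SD. Calls of higher or lower rest on an adjusted p under 0.05 (limma, Benjamini-Hochberg over all 12925 genes tested). Signals of different probe sets are not on a common scale, so no gene's level is set against another's.

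After hypoxia the alpha subunits P4HA1 and P4HA2, the lysyl hydroxylases PLOD1 and PLOD2, and LOXL2 rose above untreated cells in both sorted fractions. P4HB, PLOD3 and SERPINH1 were not called in either fraction. In CD44-/lo cells, 5 of the 9 genes tested were called higher and 0 lower, where 10.7% of all genes tested were called higher and 11.7% lower. In CD44hi cells, 6 of 9 were called higher and 0 lower, where 12.8% of all genes were called higher and 14.1% lower. The sixth, LOX, passed the filter only through hypoxia arrays and lost its call under 13 of 20 alternatives. The median log2 change of the 9 genes was 1.20 in CD44-/lo cells and 1.22 in CD44hi cells, against 0.02 and 0.00 over all genes. Of the 9 genes tested, the CD44-/lo hypoxia arrays all lay above the untreated ones for the 5 genes that rose in both fractions and LOX. In CD44hi cells this held for the same 5 genes and PLOD3, which was not called. Over all genes it held for 15.2% in CD44-/lo and 18.5% in CD44hi cells. The 5 genes were picked as called higher, so their separation is no separate support. Without the hypoxia arrays numbered 2, 6 genes were called higher in CD44-/lo cells and 6 in CD44hi cells, LOX being the added one in CD44-/lo cells; 29.8% and 30.8% of all genes were then called in either direction. All 4 comparisons of a sorted group with untreated cells share the same 3 untreated arrays. In such bulk samples, more cells that express a gene and more RNA per cell cannot be told apart.

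**Figure D1:**
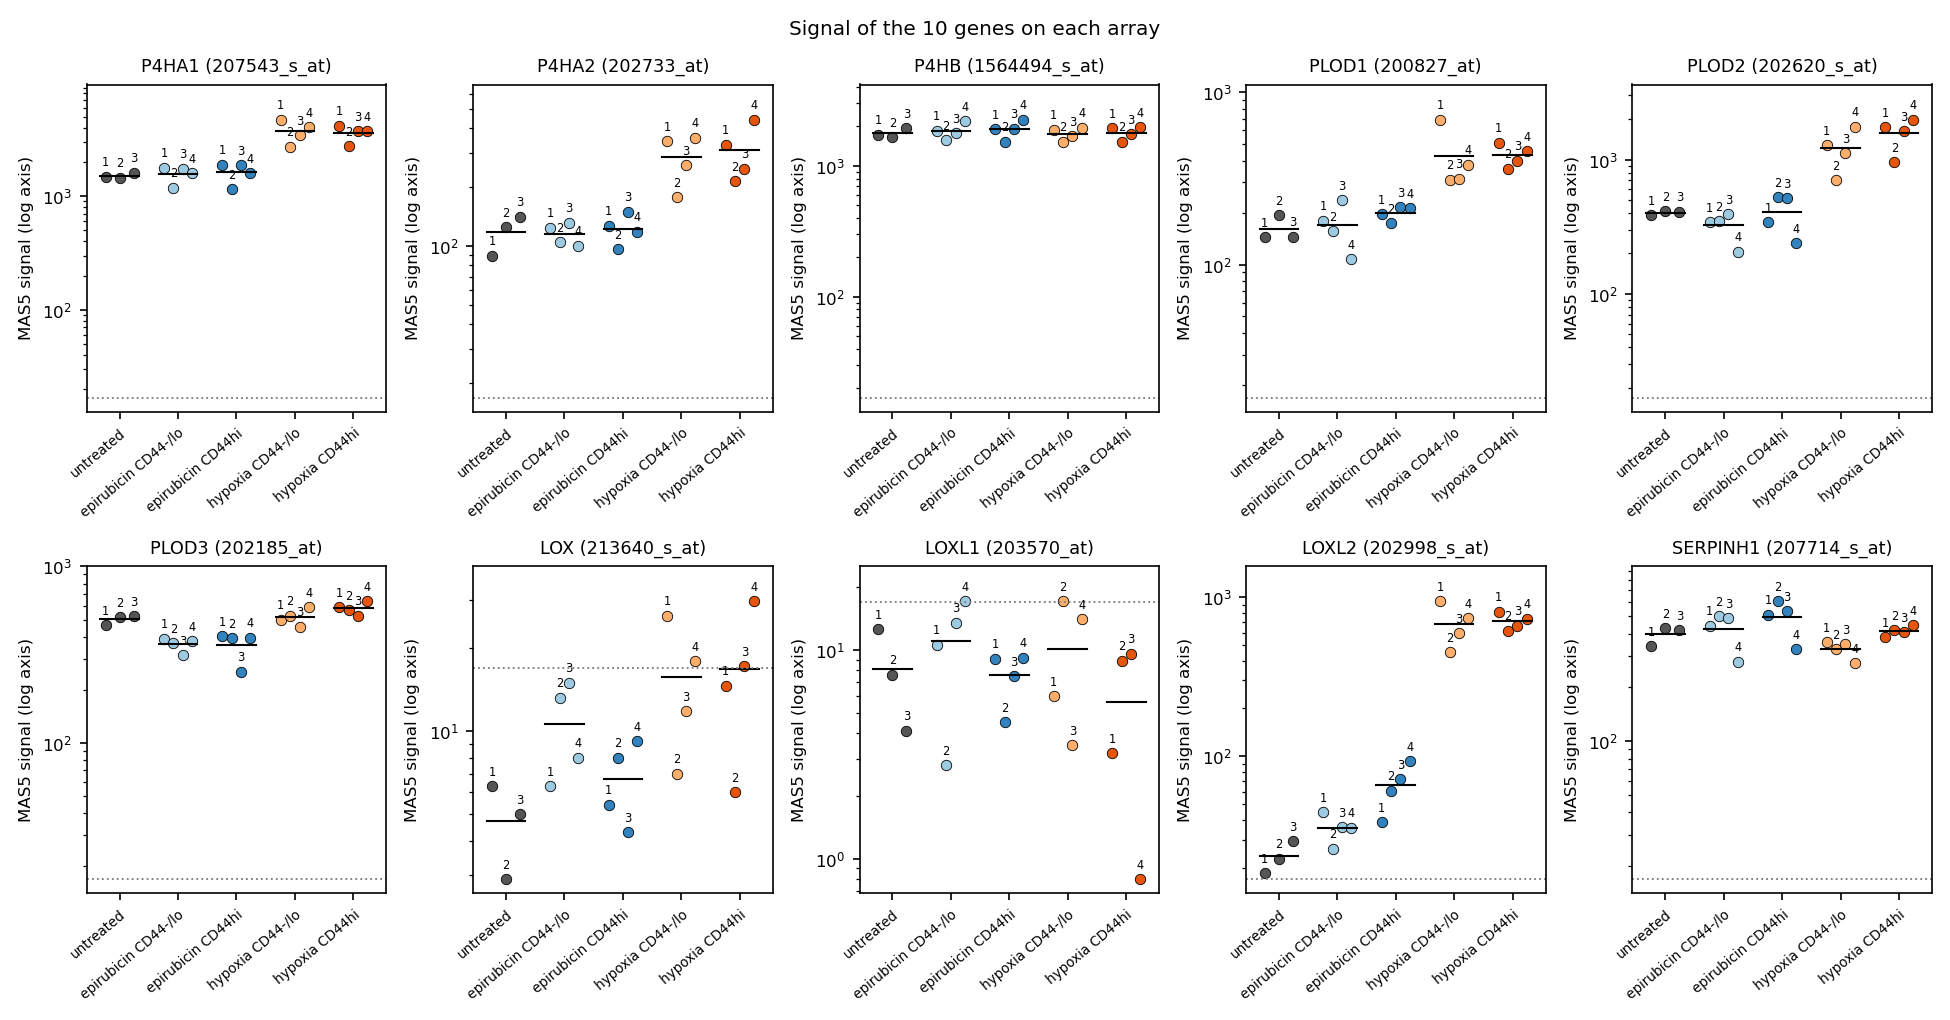
MAS5 signal (log axis) of the main probe set of each of the 10 genes on every array, by group; points are arrays with their replicate number, horizontal bars are group means, and the dotted line is the filter's floor of 16.9. P4HA1, P4HA2, PLOD1, PLOD2 and LOXL2 lie higher on all 8 hypoxia arrays than on all 3 untreated arrays, P4HB lies in 1 band throughout, and LOX and LOXL1 lie near or below the floor.

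**Figure D2:**
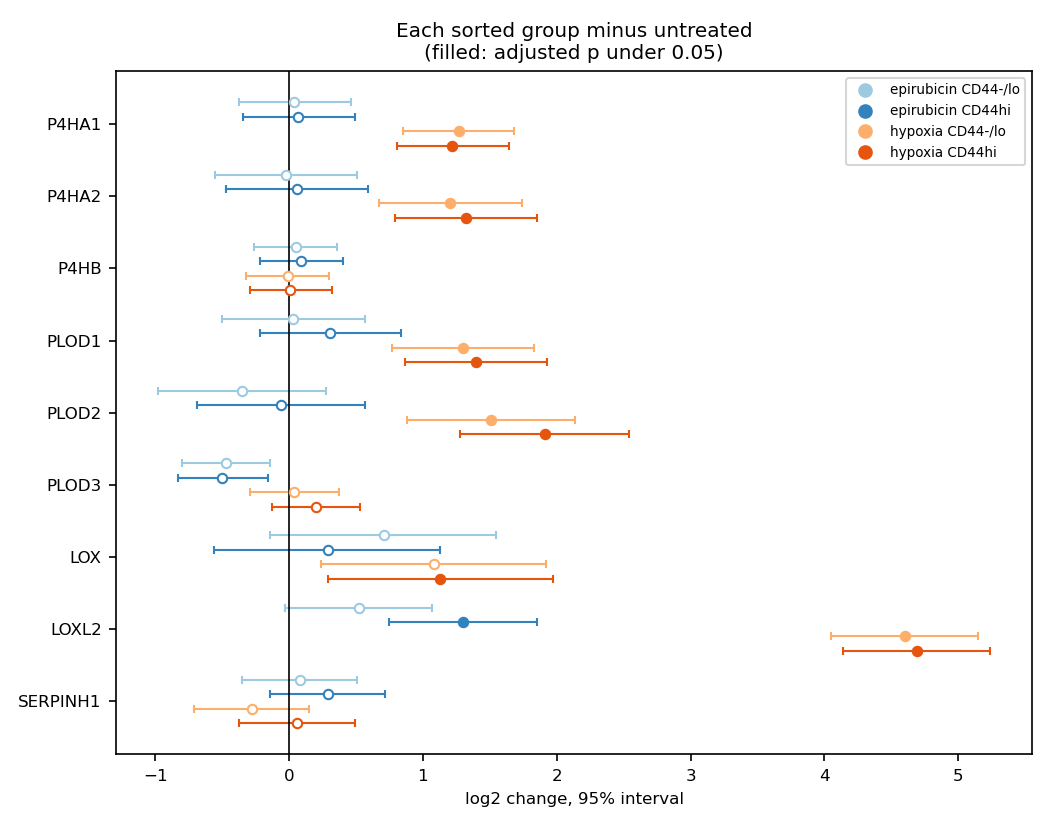
Log2 change of each tested gene in each sorted group minus untreated cells, with 95% intervals from limma; filled points have an adjusted p under 0.05. The hypoxia points of LOXL2 lie at 4.60 and 4.69, those of P4HA1, P4HA2, PLOD1 and PLOD2 between 1.20 and 1.91, and LOXL2 is the only gene with a filled epirubicin point.

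Promoter windows of the prolyl hydroxylase subunits and of PLOD1 and PLOD2 are shown because all but P4HB among these 5 genes rose together in hypoxia. They are RefSeq sequences of the build GRCh38.p14, each of 300 bases around the start of the gene, written 5' to 3' on the gene's strand. The windows are chr10:73096817-73097116 (minus strand) for P4HA1, chr5:132227042-132227341 (minus) for P4HA2, chr17:81860486-81860785 (minus) for P4HB, chr1:11934467-11934766 (plus) for PLOD1 and chr3:146161135-146161434 (minus) for PLOD2. Capitals mark each match, on either strand, to the core of the hypoxia response element, searched as ACGTG or GCGTG; a match on the other strand therefore reads as its reverse complement.
P4HA1: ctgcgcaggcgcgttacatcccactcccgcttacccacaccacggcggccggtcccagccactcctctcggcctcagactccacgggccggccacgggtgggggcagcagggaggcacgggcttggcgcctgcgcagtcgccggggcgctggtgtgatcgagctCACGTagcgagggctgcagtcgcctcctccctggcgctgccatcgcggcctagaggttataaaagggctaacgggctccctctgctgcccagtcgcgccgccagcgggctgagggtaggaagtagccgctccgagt
P4HA2: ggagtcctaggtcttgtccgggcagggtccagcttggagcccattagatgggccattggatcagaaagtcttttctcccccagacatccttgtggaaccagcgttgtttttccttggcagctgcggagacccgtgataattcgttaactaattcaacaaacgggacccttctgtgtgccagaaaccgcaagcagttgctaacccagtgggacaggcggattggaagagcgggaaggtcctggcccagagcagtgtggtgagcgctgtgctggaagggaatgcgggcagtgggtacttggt
P4HB: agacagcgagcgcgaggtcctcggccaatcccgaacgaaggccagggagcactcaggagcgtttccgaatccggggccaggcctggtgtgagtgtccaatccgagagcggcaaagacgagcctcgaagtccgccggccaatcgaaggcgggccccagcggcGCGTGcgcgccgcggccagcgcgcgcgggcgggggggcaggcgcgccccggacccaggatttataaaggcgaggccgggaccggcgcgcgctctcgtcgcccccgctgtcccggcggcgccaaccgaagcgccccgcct
PLOD1: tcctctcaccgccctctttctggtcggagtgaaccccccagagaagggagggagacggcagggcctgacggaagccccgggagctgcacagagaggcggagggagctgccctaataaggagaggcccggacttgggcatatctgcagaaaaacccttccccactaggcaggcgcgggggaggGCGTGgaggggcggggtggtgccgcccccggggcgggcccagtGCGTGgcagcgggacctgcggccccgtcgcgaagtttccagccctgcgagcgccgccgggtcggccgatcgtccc
PLOD2: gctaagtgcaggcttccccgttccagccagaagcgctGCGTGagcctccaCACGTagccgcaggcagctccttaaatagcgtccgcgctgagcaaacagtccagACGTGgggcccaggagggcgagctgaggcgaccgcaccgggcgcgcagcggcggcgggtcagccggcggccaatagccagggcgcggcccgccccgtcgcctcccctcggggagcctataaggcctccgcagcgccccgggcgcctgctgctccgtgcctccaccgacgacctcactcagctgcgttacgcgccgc
P4HA1 held 1 match, P4HA2 none, P4HB 1, PLOD1 2 and PLOD2 3. Of all 27305 promoter windows of this length, 21.6% held ACGTG, 36.3% held GCGTG and 48.4% held at least 1 of these, so a match was common. Among the other genes, LOX held 4 matches, all ACGTG, SERPINH1 held 1, and PLOD3 and LOXL1 held none. LOXL2 was not searched. LOX has 3 windows in the RefSeq table and SERPINH1 has 2, and in each case 1 was searched. Matches were thus present in a gene that was not called in any comparison (P4HB) and not found in one that rose (P4HA2). A match is a description of these letters, not a binding site, and no binding was measured.

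**Figure D3:**
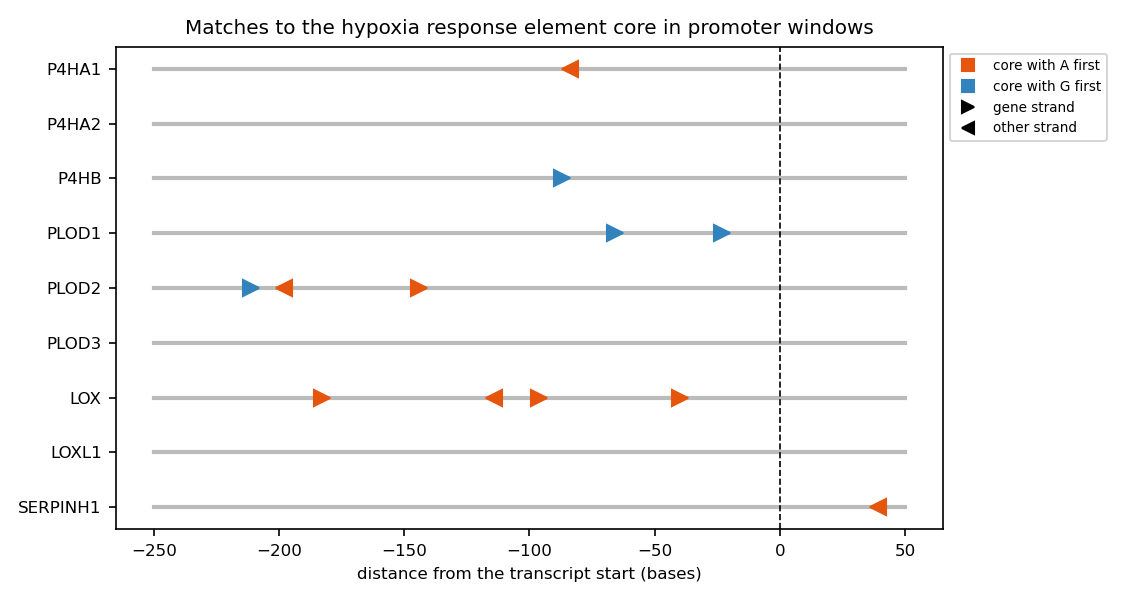
Position of each match to the hypoxia response element core along the promoter windows of 9 genes; the horizontal axis is the distance in bases from the transcript start, the colour shows which of the 2 letters stands first, and the arrowhead shows the strand. LOX has 4 matches, PLOD2 has 3, PLOD1 has 2, P4HA1, P4HB and SERPINH1 have 1 each, and P4HA2, PLOD3 and LOXL1 have none.

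P4HA1 encodes the main catalytic subunit of prolyl 4-hydroxylase in most cells. Its probe set 207543_s_at read 1481.8, 1454.3 and 1611.7 on the untreated arrays. On the hypoxia arrays it read 4694.0, 2731.5, 3438.3 and 4023.4 in CD44-/lo cells and 4155.5, 2737.6, 3705.9 and 3743.0 in CD44hi cells. Every hypoxia array lay above every untreated array. The log2 change was 1.27 ± 0.20 in CD44-/lo cells (2.41-fold, limma adjusted p = 0.000161) and 1.22 ± 0.20 in CD44hi cells (2.34-fold, limma adjusted p = 0.000149). After epirubicin, the signal was 1784.5, 1189.5, 1744.2 and 1595.9 in CD44-/lo cells and 1884.2, 1150.3, 1864.3 and 1597.9 in CD44hi cells. Both ranges spanned the untreated one, and the log2 changes were 0.04 (95% interval -0.37 to 0.46) and 0.07 (-0.34 to 0.49). The order of group means was untreated (1515.9), epirubicin CD44-/lo (1578.5), epirubicin CD44hi (1624.2), hypoxia CD44hi (3585.5) and hypoxia CD44-/lo (3721.8); only the step between epirubicin and hypoxia exceeded the spread of its neighbours. The other probe set of P4HA1, 243335_at, read 3.3 to 21.2 and reached the floor on 3 arrays. It was not called in any comparison with untreated cells, with a log2 change of 0.78 ± 0.42 in CD44-/lo and 0.09 ± 0.42 in CD44hi cells after hypoxia.

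P4HA2 encodes the second alpha subunit, which forms its own enzyme with P4HB. Probe set 202733_at read 89.6, 125.4 and 141.3 in untreated cells. After hypoxia it read 343.0, 178.4, 258.3 and 358.8 in CD44-/lo cells and 329.6, 214.5, 249.0 and 441.8 in CD44hi cells, so the groups did not overlap. The change was 1.20 ± 0.26 in CD44-/lo cells (2.31-fold, limma adjusted p = 0.00225) and 1.32 ± 0.26 in CD44hi cells (2.49-fold, limma adjusted p = 0.000725). The epirubicin arrays read 100.6 to 132.2 in CD44-/lo and 96.8 to 149.8 in CD44hi cells, around the untreated values. A further probe set, 1568611_at, behaved differently. It read 44.8, 38.1 and 44.4 in untreated cells and 38.7 to 58.5 and 29.7 to 85.6 in the CD44-/lo and CD44hi cells after hypoxia, overlapping with them. After epirubicin it read 10.3 to 23.2 and 9.5 to 24.6, below every untreated array, at log2 changes of -1.15 ± 0.33 and -1.0 ± 0.33 that were not called (limma adjusted p = 0.0676 and 0.0752 over all 32252 probe sets tested). With all probe sets of a gene averaged, the hypoxia change of P4HA2 was 0.50 in each fraction and not called (limma adjusted p = 0.127 in CD44-/lo and 0.11 in CD44hi cells). That mean also holds a probe set that did not pass the filter, 1555027_at, which read 0.8 to 17.2 and reached the floor on 1 of 19 arrays.

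P4HB, the beta subunit that is also protein disulfide isomerase, differed little between groups. Probe set 1564494_s_at read 1734.3, 1650.3 and 1936.0 in untreated cells. It read 1524.4 to 1951.4 in CD44-/lo and 1533.1 to 1966.8 in CD44hi cells after hypoxia, and 1565.2 to 2194.2 and 1528.7 to 2249.9 in the same fractions after epirubicin. All groups overlapped. The log2 change after hypoxia was -0.01 (95% interval -0.32 to 0.30) in CD44-/lo and 0.01 (-0.29 to 0.32) in CD44hi cells, so changes as large as those of the alpha subunits lay outside the interval. None of the 3 probe sets of P4HB was called in any comparison. The lowest adjusted p of the others against untreated cells came with 200654_at in CD44hi cells after epirubicin, where all 4 arrays (598.1 to 745.7) lay below the untreated ones (810.7 to 1105.3) at a log2 change of -0.51 ± 0.22 (limma adjusted p = 0.187).

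PLOD1 encodes lysyl hydroxylase 1, which acts on lysines of the triple helix. Its single probe set, 200827_at, read 144.4, 193.8 and 145.0 in untreated cells. It read 690.9, 310.0, 314.6 and 379.1 in CD44-/lo cells after hypoxia and 507.9, 359.2, 401.1 and 453.3 in CD44hi cells. All 8 values lay above the untreated ones, and the first CD44-/lo array stood high. The log2 change was 1.30 ± 0.25 in CD44-/lo cells (2.47-fold, limma adjusted p = 0.00118) and 1.40 ± 0.25 in CD44hi cells (2.63-fold, limma adjusted p = 0.000429). After epirubicin the signal was 107.5 to 235.8 in CD44-/lo and 173.0 to 215.1 in CD44hi cells, overlapping with untreated cells in both fractions.

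PLOD2 encodes lysyl hydroxylase 2, which hydroxylates the telopeptide lysines behind the stiffer type of collagen cross-link. Probe set 202620_s_at read 386.1, 410.9 and 408.2 in untreated cells. After hypoxia it read 1277.1, 702.5, 1116.3 and 1757.7 in CD44-/lo cells and 1745.7, 955.1, 1623.8 and 1975.7 in CD44hi cells. The lowest hypoxia array was the second of each fraction, and it still exceeded every untreated array. The log2 change was 1.51 ± 0.30 in CD44-/lo cells (2.85-fold, limma adjusted p = 0.00151) and 1.91 ± 0.30 in CD44hi cells (3.76-fold, limma adjusted p = 0.000131). The other probe set, 202619_s_at, rose as well, by 1.34 ± 0.29 and 2.03 ± 0.29. After epirubicin 202620_s_at read 206.6 to 393.1 in CD44-/lo and 239.2 to 525.0 in CD44hi cells, and neither was called. Array 4 was the lowest in both epirubicin fractions, and it was also the array with the highest ACTB ratio; PLOD2 was not called after epirubicin without those arrays or with that ratio as a covariate.

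PLOD3 encodes lysyl hydroxylase 3, which also transfers sugars to hydroxylysine, and it followed another pattern. Its single probe set, 202185_at, read 466.0, 514.9 and 522.7 in untreated cells. It read 498.2, 525.8, 454.4 and 585.3 in CD44-/lo and 587.6, 564.2, 526.2 and 634.5 in CD44hi cells after hypoxia, changes of 0.04 and 0.20 on the log2 scale that were not called. After epirubicin it read 390.4, 368.3, 313.6 and 375.6 in CD44-/lo cells and 401.7, 391.5, 253.0 and 393.9 in CD44hi cells. All 8 epirubicin arrays lay below the untreated ones, but the changes of -0.47 ± 0.16 and -0.50 ± 0.16 did not pass the test (limma adjusted p = 0.125 and 0.0658). Shares of all genes or probe sets whose epirubicin arrays separated from untreated ones are not given here, so how common this is was not judged.

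SERPINH1, also called HSP47, is the chaperone that binds folded procollagen in the endoplasmic reticulum. Probe set 207714_s_at read 340.6, 430.5 and 419.8 in untreated cells. It read 359.6, 326.5, 348.6 and 273.9 in CD44-/lo and 381.9, 418.4, 407.2 and 447.9 in CD44hi cells after hypoxia. After epirubicin it read 443.7, 499.8, 487.0 and 278.3 in CD44-/lo and 512.2, 607.6, 534.2 and 327.3 in CD44hi cells. Each treated group overlapped with the untreated one. Array 4 was the lowest in both epirubicin fractions. SERPINH1 was not called in any comparison, and its log2 change after hypoxia was -0.28 (95% interval -0.71 to 0.15) in CD44-/lo and 0.06 (-0.37 to 0.49) in CD44hi cells.

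LOXL2, a secreted lysyl oxidase that cross-links collagen IV, had the largest change of the 9 genes in both hypoxia groups. Probe set 202998_s_at read 18.4, 22.7 and 29.3 in untreated cells, close to the floor. It read 943.5, 451.1, 595.4 and 737.6 in CD44-/lo and 810.1, 616.1, 660.7 and 732.9 in CD44hi cells after hypoxia. The lowest hypoxia array was thus far above the highest untreated one. The log2 change was 4.60 ± 0.26 in CD44-/lo cells (24.2-fold, limma adjusted p = 1.01e-09) and 4.69 ± 0.26 in CD44hi cells (25.8-fold, limma adjusted p = 6.89e-10). These changes ranked 8th and 15th of the 12925 genes tested when genes were ordered from the most raised. LOXL2 has 4 probe sets. In CD44hi cells, 228808_s_at rose by 3.43 ± 0.35 and 202997_s_at by 2.68 ± 0.36 on the log2 scale, and both were called in CD44-/lo cells too. Probe set 202999_s_at, which reached the floor on 6 arrays, was not called (0.27 ± 0.45 and 1.02 ± 0.45). With all 4 averaged, the hypoxia changes were 2.66 and 2.95 and still called.

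LOX, which cross-links both collagen and elastin, was at the edge of detection. Probe set 213640_s_at reached the floor on 4 of 19 arrays, all of them hypoxia arrays, so LOX was tested only through the groups where it was high. It read 6.3, 2.9 and 5.0 in untreated cells, 26.2, 7.0, 11.8 and 17.9 in CD44-/lo cells after hypoxia, and 14.6, 6.0, 17.2 and 29.6 in CD44hi cells after hypoxia. The CD44-/lo arrays lay above the untreated ones, while the CD44hi arrays overlapped with them through array 2. Every untreated and every epirubicin array was below the floor, so no fold change is given. The fitted log2 difference passed the test in CD44hi cells (1.13 ± 0.40, limma adjusted p = 0.0433) and not in CD44-/lo cells (1.08 ± 0.40, limma adjusted p = 0.0598). Probe set 204298_s_at, at the floor on 3 arrays, gave the opposite calls, with 1.62 ± 0.53 in CD44-/lo (limma adjusted p = 0.0392 over all probe sets) and 1.05 ± 0.53 in CD44hi cells (limma adjusted p = 0.17). The CD44hi call of 213640_s_at was lost when any 1 of 6 of the 7 arrays compared was left out, with adjusted p-values from 0.00657 to 0.156 over all alternatives. Leaving out the CD44-/lo array 2, its lowest, brought that difference to 1.32 (limma adjusted p = 0.0218). After epirubicin LOX read 6.3 to 15.0 in CD44-/lo and 4.3 to 9.2 in CD44hi cells and was not called. LOXL1, a lysyl oxidase of elastic fibres, read 0.8 to 17.1 over all arrays, reached the floor on 2 of 19 and was not tested.

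**Figure D4:**
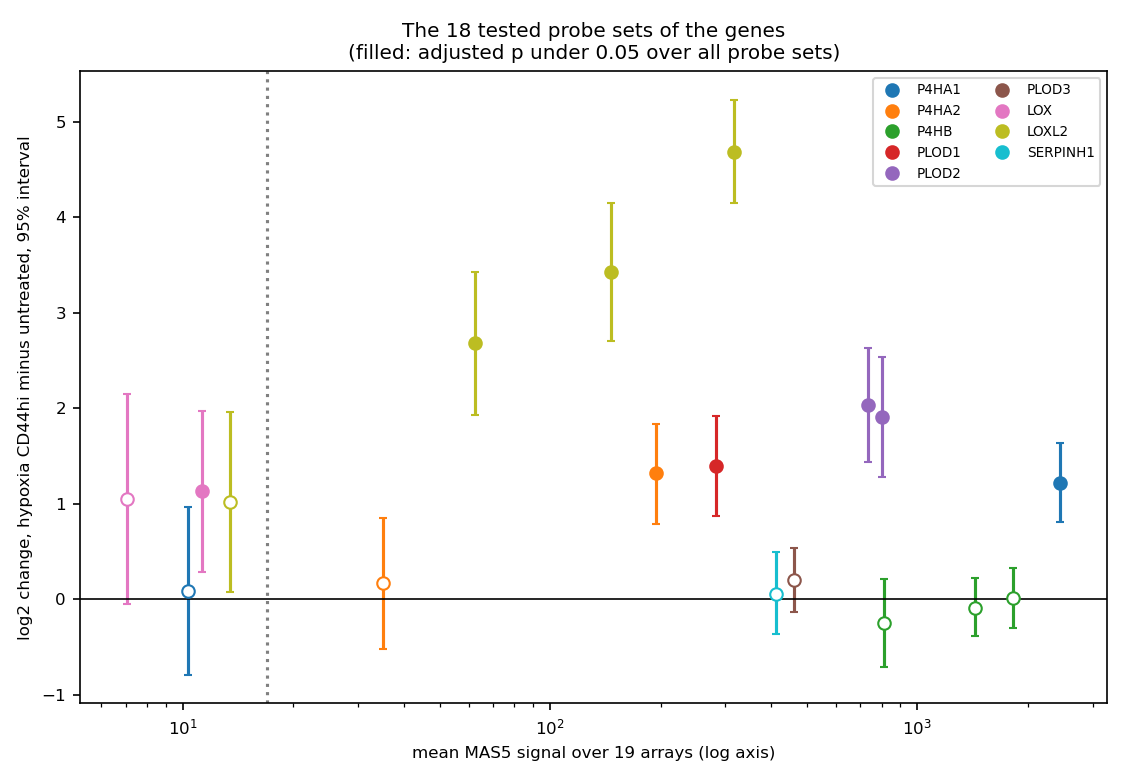
Log2 change in CD44hi cells after hypoxia minus untreated cells for each of the 18 tested probe sets, against its mean MAS5 signal over 19 arrays (log axis), with 95% intervals; filled points have an adjusted p under 0.05 over all probe sets tested, and the dotted line is the floor of 16.9. The probe sets of P4HA1, P4HA2 and LOXL2 that were not called have lower signals than those of the same gene that were, both PLOD2 probe sets are called, and none of the 3 P4HB probe sets is; 21.9% of all probe sets tested were called in either direction.

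Epirubicin alone moved few of the genes past the test. In CD44-/lo cells 0 of 9 genes were called, where 2.82% of all genes were called (limma; 2352 of 12925 genes had an unadjusted p under 0.05). In CD44hi cells LOXL2 alone was called higher and no gene lower, where 4.63% of all genes were called higher and 1.79% lower. LOXL2 read 38.4, 60.8, 72.1 and 93.2 in these cells, above all 3 untreated arrays, and 44.4, 26.3, 35.8 and 35.5 in CD44-/lo cells, where array 2 fell within the untreated range. The log2 change was 1.30 ± 0.26 in CD44hi cells (2.47-fold, limma adjusted p = 0.00541) and 0.52 ± 0.26 in CD44-/lo cells (limma adjusted p = 0.301). The CD44hi call was lost without untreated array 1 (1.17, limma adjusted p = 0.0521), with the mean of all 4 probe sets (0.59, limma adjusted p = 0.0882), with the ACTB ratio as a covariate (1.01, limma adjusted p = 0.0672) and with a covariate for the hybridisation controls (0.85, limma adjusted p = 0.262). Without the epirubicin arrays numbered 4, 1 gene was called in CD44hi cells and 0 in CD44-/lo cells.

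None of the 9 genes differed between CD44hi and CD44-/lo cells beyond the test after either treatment. After hypoxia, 0 of 9 were called, where 0.0% of all genes were called in limma (889 genes had an unadjusted p under 0.05). After epirubicin, 0 of 9 were called, where 0.0232% of all genes (3) were called and 312 had an unadjusted p under 0.05. With the replicate number as a block within the treatment, 18 genes were called after epirubicin, and again 0 of the 9 after either treatment. The log2 difference of CD44hi minus CD44-/lo cells after hypoxia was -0.04 (95% interval -0.42 to 0.34) for P4HA1, 0.11 (-0.38 to 0.60) for P4HA2 and 0.09 (-0.40 to 0.58) for PLOD1. For LOXL2 it was 0.09 (-0.42 to 0.60) and for PLOD2 0.40 (-0.19 to 0.99). The other PLOD2 probe set, 202619_s_at, differed by 0.70 (0.15 to 1.25, limma unadjusted p = 0.0151). It was not called either (limma adjusted p = 0.708 over all probe sets). SERPINH1 was the only gene of the 9 whose fractions did not overlap after hypoxia (1.28% of all genes did so with CD44hi cells higher), at 381.9 to 447.9 in CD44hi and 273.9 to 359.6 in CD44-/lo cells, with a log2 difference of 0.34 ± 0.19 (limma adjusted p = 0.766). The labels do not say that same-numbered fractions are pairs. After epirubicin they were treated as pairs because their arrays tended to deviate together. There SERPINH1 was higher in CD44hi cells in 4 of 4 pairs, at 0.21 ± 0.08 with the replicate block within the treatment (limma adjusted p = 0.408). Of the other 8 genes tested, 7 were higher in CD44hi cells in 3 of 4 pairs and LOX in 1 of 4, although the mean difference of PLOD3 was -0.03. With the same numbering after hypoxia, P4HB, PLOD2, PLOD3 and SERPINH1 were higher in 4 of 4. PLOD1 was higher in 3, and P4HA1, P4HA2, LOX and LOXL2 in 2. The share of all genes higher in as many pairs is not given here. After epirubicin the largest difference was that of LOXL2, at 0.78 ± 0.24 (limma unadjusted p = 0.0043, adjusted p = 1), and array 1 of the CD44hi cells fell within the CD44-/lo range. With the replicate block within the treatment, LOXL2 differed by 0.78 ± 0.25 (limma adjusted p = 0.291) and PLOD2 by 0.29 ± 0.11 (limma adjusted p = 0.374). The other LOXL2 probe sets differed by 0.14 ± 0.32 (228808_s_at), 0.59 ± 0.33 (202997_s_at) and 0.04 ± 0.42 (202999_s_at), and none was called. The difference of the CD44 effects between hypoxia and epirubicin was called for 0 of 9 genes and 0.0% of all genes in limma, 265 genes having an unadjusted p under 0.05. For LOXL2 it was -0.69 (95% interval -1.41 to 0.03).

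Hypoxia was also set against epirubicin within each fraction, a comparison in which both sides are treated and sorted but the exposures lasted 7 and 3 days. In each fraction 6 of 9 genes were higher after hypoxia and 0 lower: P4HA1, P4HA2, PLOD1, PLOD2, PLOD3 and LOXL2. Over all 12925 genes tested, 7.08% (915) were called higher in CD44-/lo and 8.0% (1034) in CD44hi cells. In either direction 2187 and 2354 were called. With 9 genes, the absence of lower calls is not read as a result. PLOD2 was 3.63-fold higher in CD44-/lo (1.86 ± 0.28, limma adjusted p = 0.000106) and 3.92-fold higher in CD44hi cells (1.97 ± 0.28, limma adjusted p = 6.57e-05). LOXL2 was 16.9-fold higher in CD44-/lo (4.08 ± 0.24, limma adjusted p = 2.32e-09) and 10.5-fold higher in CD44hi cells (3.39 ± 0.24, limma adjusted p = 7.88e-08). P4HA1, P4HA2 and PLOD1 differed by 1.09 to 1.27 on the log2 scale. For P4HA1 the CD44hi call was lost with the mean of its 2 probe sets (0.38, limma adjusted p = 0.217), and with 243335_at alone neither fraction was called (0.61 in CD44-/lo and -0.38 in CD44hi cells). PLOD3, which was not called against untreated cells, was 1.42-fold higher in CD44-/lo (0.51 ± 0.15, limma adjusted p = 0.0214) and 1.62-fold higher in CD44hi cells (0.70 ± 0.15, limma adjusted p = 0.00213). Its hypoxia and epirubicin arrays did not overlap in either fraction, but the share of all genes for which this held is not given here. Its CD44-/lo call was lost without epirubicin array 3 (0.44, limma adjusted p = 0.079) or hypoxia array 4 (0.44, limma adjusted p = 0.0702), and with only those groups in the fit (limma adjusted p = 0.0578). SERPINH1 differed by -0.35 ± 0.19 and -0.22 ± 0.19 and was not called with all arrays. Without the epirubicin arrays numbered 4 it was lower after hypoxia in CD44-/lo (-0.54, limma adjusted p = 0.0117) and CD44hi cells (-0.41, limma adjusted p = 0.0468), and 7 of 9 genes were called in each fraction, where 15.9% of all genes in CD44-/lo and 18.5% in CD44hi cells were called under that setting. P4HB differed by -0.06 (95% interval -0.35 to 0.22) and -0.07 (-0.36 to 0.21). For P4HA2, the probe set 1568611_at was also higher after hypoxia than after epirubicin, by 1.25 ± 0.30 in CD44-/lo and 1.17 ± 0.30 in CD44hi cells (limma adjusted p = 0.00827 and 0.0116 over all probe sets).

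**Figure D5:**
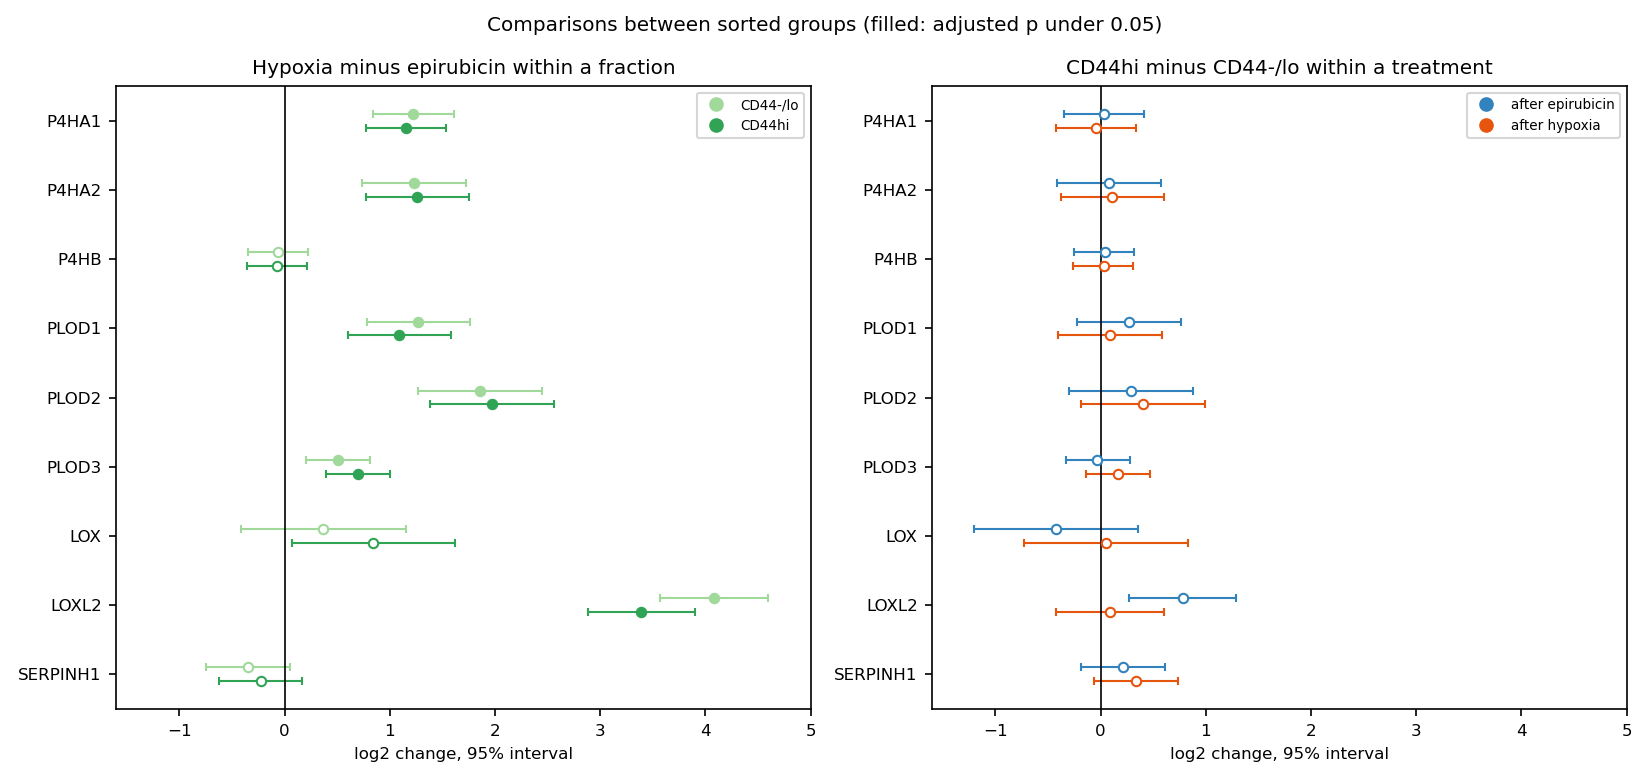
Log2 change with 95% intervals for hypoxia minus epirubicin within each CD44 fraction (left) and for CD44hi minus CD44-/lo within each treatment (right); filled points have an adjusted p under 0.05 in limma. On the left 6 genes are filled in both fractions, with LOXL2 at 4.08 and 3.39, and on the right none is.

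Over the 19 arrays, the genes that rose in hypoxia had alike profiles. As a description, Pearson's r of log2 signal was 0.951 between P4HA1 and P4HA2, 0.886 between PLOD1 and PLOD2, and 0.932 between P4HA1 and LOXL2. P4HB had r of 0.131 with P4HA1 and 0.121 with P4HA2, the subunits that it joins, and SERPINH1 had r of -0.407 to -0.14 with the 5 genes that rose in both fractions. These arrays share their 5 groups, so such values follow mostly from the group means. Among the tested genes outside the 10 described here, the profiles most like P4HA1 were those of NOTCH3 (r = 0.969) and MXI1 (0.967). Those most like P4HA2 were MXI1 (0.951) and ATXN1 (0.949). OLFML2A (0.932) and ANXA2P2 (0.927) were most like PLOD1, and SIAH2 (0.974) and ITGB1 (0.962) most like PLOD2. PFKFB3 (0.978) and PKIA (0.973) were most like LOXL2, MIF (0.88) and MIF-AS1 (0.875) most like PLOD3, and LINC01293 (0.881) and WDR45B (0.863) most like LOX.

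Other genes of collagen biosynthesis were called in both directions after hypoxia, at shares near those of all genes. Of 30 such genes (prolyl 3-hydroxylases, chaperones, isomerases, glycosyltransferases, coat proteins, proteinases and regulators), 29 had a probe set and 20 were tested. After hypoxia 3 were called higher and 4 lower in CD44-/lo cells, and 3 higher and 3 lower in CD44hi cells, with median log2 changes of 0.06 and -0.12. The shares over all genes were 10.7% higher and 11.7% lower in CD44-/lo and 12.8% and 14.1% in CD44hi cells. After epirubicin 0 of 20 were called in either fraction, and 0 of 20 were called between fractions after either treatment. BMP1, which removes the C-propeptides of procollagens, rose in CD44hi cells after hypoxia (mean signal 36.7 against 8.4, limma adjusted p = 0.0136). All 3 untreated arrays were below the floor, which makes the rise at least 2.09-fold when they are set to the floor. FKBP9, a prolyl isomerase of the endoplasmic reticulum, rose by 0.88 ± 0.21 (828 against 441, limma adjusted p = 0.00428). CREB3L1, a membrane-bound transcription factor that turns on secretory and collagen genes, was at least 1.55-fold lower (2.95 against 27.3, limma adjusted p = 0.00255), since its 4 hypoxia arrays were all below the floor. TMEM38B, an endoplasmic reticulum cation channel, fell by 1.14 (SE 0.23; 156 against 338, limma adjusted p = 0.0012). All 4 were called in the same direction in CD44-/lo cells.

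The collagen chains themselves were partly raised and partly lowered. Of 15 fibrillar and basement membrane chains, 9 were tested, and 4 were called higher and 1 lower in CD44hi cells after hypoxia, against 3 and 1 in CD44-/lo cells. The shares over all genes were those given above for these comparisons, 12.8% higher and 14.1% lower in CD44hi cells. In CD44hi cells COL4A3 was at least 4.3-fold higher (mean signal 93.0 against 2.03, limma adjusted p = 0.000415) and COL4A4 at least 2.4-fold higher (45.6 against 2.93, limma adjusted p = 0.00469); both are chains of basement membrane collagen IV. Their untreated and CD44-/lo epirubicin arrays were all below the floor, so both passed the filter through the groups where they were high. COL5A2, a chain of fibrillar collagen V, fell by 2.93 in the same cells (SE 0.64; 12.9 against 110, limma adjusted p = 0.00205). It also fell in CD44hi cells after epirubicin, by 2.88 (SE 0.64; 17.5 against 110, limma adjusted p = 0.0102), where 1 chain was called higher and 1 lower (4.63% and 1.79% of all genes). COL5A2 reached the floor on 1 CD44hi array after hypoxia (3.3 to 28.5) and on 2 after epirubicin (1.5 to 37.4). The sizes of its falls are therefore uncertain. Over all 12925 genes tested, 2903 were called in either direction in CD44-/lo and 3475 in CD44hi cells after hypoxia. Of 5 elastic fibre genes and partners of lysyl oxidases, 4 were tested and 1 was called in each hypoxia group, near those shares. That gene, FN1 (fibronectin, a matrix glycoprotein), rose by 3.63 ± 0.46 in CD44-/lo (3321.0 against 284, limma adjusted p = 1.96e-05) and 3.94 ± 0.46 in CD44hi cells after hypoxia (3980.8 against 284, limma adjusted p = 5.08e-06). It rose by 2.33 ± 0.46 in CD44hi cells after epirubicin (1403.9, limma adjusted p = 0.0041), where 4.63% of all genes were called higher.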

How the data were processed

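RNA from 19 samples of SKBR3 cells was labelled from 200 ng of total RNA and hybridised to Affymetrix arrays, per the labels' protocols. The authors deposited 1 linear signal intensity per probe set and array, made with MAS5 per the submitters' processing notes; the MAS5 version is not given in the sources used here. The mean of every array after trimming 2% at each end was 100.01, so the deposited arrays had been scaled alike. No detection calls were used, and the number of arrays limits the precision.

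Probe sets were named from the platform annotation. Of 54675, 62 were array controls, 41091 named 1 gene, 1801 several and 11721 none; the last 2 kinds were left out. The probe sequences were not used here, so matches to related genes were not checked. The probe set with the highest mean signal stood for its gene, and those of type _x_at did so only for genes without another. Genes with at least 3 arrays at or above 16.9, the median of the table, were tested on log2(signal + 4.2), 4.2 being the 25th percentile. The fit was limma 3.58.1 in R 4.3.3 with 5 group means, empirical Bayes moderation and a variance trend, two-sided, with Benjamini-Hochberg adjustment; the code was tested on simulated data. Probe sets were also fitted singly. Motifs were counted in RefSeq promoter windows of GRCh38.p14 with pandas 2.3.3; protein sequences were not used here.

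All 10 genes were named. Other collagen genes were named as the 4 called with the largest change in each CD44hi group against untreated, and up to 3 called chains and elastic fibre genes with the largest change against untreated. For each gene called in any of the 9 comparisons, the 2 genes outside the 10 with the most alike profile were named. The genes and lists were chosen with earlier results of these data known. Same-numbered CD44-/lo and CD44hi arrays after epirubicin tended to deviate together (r of 0.114 to 0.546 for the 4 pairs) and were treated as pairs on that basis. The labels do not state this, and CD44-/lo array 3 with CD44hi array 1 also reached 0.14. After hypoxia r was -0.041 to 0.633, with array 1 the lowest and arrays 3 and 4 at 0.279 and 0.543. No other groups were treated as pairs, and the values do not settle whether the hypoxia fractions are paired. Alternatives covered scaling, offset, filter, probe set choice, variance trend, samples in the fit, replicate block, array quality covariates and left-out arrays.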

Additional observations from a re-analysis of the deposited data

Results flagged for a closer look

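PLOD3 on array 3 of the CD44hi cells after epirubicin had a signal of 253, against 391.5 to 401.7 on the other arrays of that group. On the log2 scale its gap to the nearest array was 0.944 of the group's range, above Dixon's critical value for 4 samples. It was the only such sample among 40 combinations of a gene and a group, and chance alone gives some. Array 3 of the CD44-/lo cells after epirubicin was also the lowest of its group for PLOD3, at 313.6. Without epirubicin CD44hi array 3 PLOD3 was still called higher after hypoxia than after epirubicin in CD44hi cells (0.54, limma adjusted p = 0.01).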

How the results depend on the processing

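Over all comparisons 24 changes of the 10 genes were called, and 15 of them were called under every alternative run. For PLOD1, PLOD2 and LOXL2 after hypoxia, against untreated cells or epirubicin, no alternative lost the call. The mean of all probe sets lost the hypoxia calls of P4HA2 against untreated cells in both fractions (limma adjusted p = 0.127 in CD44-/lo and 0.11 in CD44hi cells). The choice of probe set ended calls of P4HA1: with probe sets of types _x_at and _s_at used only where a gene has no other, 243335_at stood for it, and its change was 0.78 in CD44-/lo and 0.09 in CD44hi cells against untreated (neither called), and -0.38 for hypoxia against epirubicin in CD44hi cells, a reversed direction (limma adjusted p = 0.56). The number of genes called after epirubicin in CD44-/lo cells (0) became 1 with only the groups compared and 1 with the replicate block, PLOD3 being lower in both (-0.47, limma adjusted p = 0.0411; -0.51, limma adjusted p = 0.037). In CD44hi cells after epirubicin the number called (1) became 0 with the mean of all probe sets, 0 with the hybridisation controls and 0 with the ACTB ratio as a covariate, and 2 with the replicate block, which added PLOD3 (-0.54, limma adjusted p = 0.0171); it was 0 to 1 when 1 array was left out. The replicate block also lost LOX in CD44hi cells after hypoxia (1.04, limma adjusted p = 0.0657). With the ACTB ratio as a covariate SERPINH1 was called lower after hypoxia than after epirubicin (-0.44 in CD44-/lo and -0.59 in CD44hi cells). The cause of these differences was not tested. Over all genes, the count called against untreated ranged from 1625 to 3849 (2903) in CD44-/lo and 2322 to 3986 (3475) in CD44hi cells after hypoxia, and from 74 to 1190 (365) and 108 to 1356 (830) after epirubicin. Between fractions it was 0 to 18 after epirubicin (3) and 0 to 6 after hypoxia (0). Signals near the floor limit LOX, LOXL1 and the weaker probe sets of P4HA1, P4HA2 and LOXL2.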
